A study of Mus musculus with 24 samples.

Results

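Ptgds and 9 genes expressed in the meninges (Dcn, Lum, Ogn, Col1a1, Col1a2, Col3a1, Slc6a13, Aldh1a2 and Foxc1) were followed in brain RNA from mice lacking Celf6, 10 of the 24062 genes counted. Ptgds was chosen because its level was low in the knockout in these same libraries, so its knockout differences below are a description and carry no test. The other 9 were chosen as meningeal genes, to set their level in each library beside that of Ptgds.

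Celf6 codes for a CELF-family protein that binds RNA. Brains of wild-type (WT) and Celf6 knockout (KO) mice were taken at postnatal day 9, the cortex was removed, and a piece from behind the thalamus gave 2 kinds of RNA. Input is total RNA of the piece, in which every cell type is mixed. TRAP (translating ribosome affinity purification) is RNA on ribosomes pulled down from serotonin cells through a tagged ribosomal allele specific to those cells, and the piece keeps all its other cells until the pulldown. WT and KO therefore differ by genotype only as far as the labels say, both RNA kinds were made from both genotypes, the knockout allele is not described further, and no strain is named.

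Ptgds encodes lipocalin-type prostaglandin D synthase, which turns prostaglandin H2 into prostaglandin D2 and is also secreted into the cerebrospinal fluid as a carrier protein. In the brain it is known from the leptomeninges, the choroid plexus and oligodendrocytes rather than from neurons. The meninges are layers of fibroblasts that lay down collagen and small proteoglycans and release retinoic acid, and a thin sheet of them stays on a dissected piece of brain to a varying extent.

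The 19 libraries used held 3390423 to 6861963 counts. WT input 2 and WT input 3 were as alike as repeat runs (chi-square per gene of 1.34, while 4 libraries and their repeat runs gave 1.37 to 2.58 and 35 other pairs gave 24.7 to 90.3). They were summed as WT input 2/3 and count as 1 sample, so that WT input has n = 3 and the remaining groups have n = 5. Celf6 had 85.2 to 187 CPM (counts scaled to a common library size, TMM-normalized over the 18 resulting libraries) in WT TRAP and 21.4 to 115 in KO TRAP. The highest KO value, 115, belongs to the library labelled KO TRAP 1 and lies within the WT range. In input Celf6 had 33.1, 15.4 and 104 CPM in WT 1, 2/3 and 5 and 4.79 to 22.0 in KO, so the library labelled WT input 2/3 lies within the KO range. Xist RNA and Y-linked RNA occurred together in WT input 5 (37.0 and 9.93 CPM) and in the library labelled KO TRAP 1 (71.2 and 28.8 CPM). The Ptgds differences in KO, and in TRAP against input, are also given without 1 or more of these libraries. Other results below mostly keep them in. Serotonin neuron genes summed to 4224 to 10680 CPM in TRAP and 210 to 348 CPM in input, and meningeal markers were present in both RNA kinds.

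In input Ptgds was high in all WT libraries and in 1 KO library. It had 871, 559 and 832 CPM in WT input 1, 2/3 and 5. In KO input 1 to 5 it had 126, 54.9, 622, 101 and 80.5 CPM. KO input 3 lay inside the WT range, between WT input 2/3 and WT input 5, and the other 4 KO libraries lay below every WT library by a wide gap. The means were 754 ± 170 (SD, n = 3) in WT and 197 ± 239 (SD, n = 5) in KO, so the KO spread is larger than the KO mean, with KO input 3 far above the rest. The fitted difference, KO over WT, was −2.11 ± 0.57 (log2 fold change ± SE, as for all fitted differences), 4.32-fold lower.

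In TRAP the mean Ptgds level of each genotype was lower than in input, and the genotypes differed in the same direction. WT TRAP 1 to 5 had 344, 77.8, 198, 392 and 192 CPM. KO TRAP 1 to 5 had 47.3, 15.0, 128, 55.3 and 7.74 CPM. Again replicate 3 was the highest KO library and the only one above a WT library, here WT TRAP 2, and the other 4 lay below every WT library. The means were 241 ± 127 (SD, n = 5) and 50.7 ± 47.9 (SD, n = 5), with a fitted difference of −2.30 ± 0.60, 4.92-fold lower.

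Every KO library lay below every WT library for 1.27% of the 13036 genes tested in input and for 0.41% of the 12204 tested in TRAP, and Ptgds is not among them in either. Sequencing run 1 holds replicates 1 to 3 and run 2 holds replicates 4 and 5. Within runs 1 and 2 the mean log2 CPM of Ptgds in KO less WT was −2.10 and −3.20 in input (run 2 has 1 WT library) and −1.94 and −3.69 in TRAP. The fitted input value was −3.07 ± 0.31 without KO input 3, −1.42 ± 0.66 without WT input 5 and −2.48 ± 0.61 without the library labelled WT input 2/3. Without WT input 5, run 2 holds no WT input library, so that value rests on run 1 alone. The fitted TRAP value was −2.27 ± 0.66 without the library labelled KO TRAP 1 and −2.95 ± 0.55 without KO TRAP 3. In a mixed tissue, fewer cells of a type and less RNA per cell cannot be told apart.

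**Figure D1:**
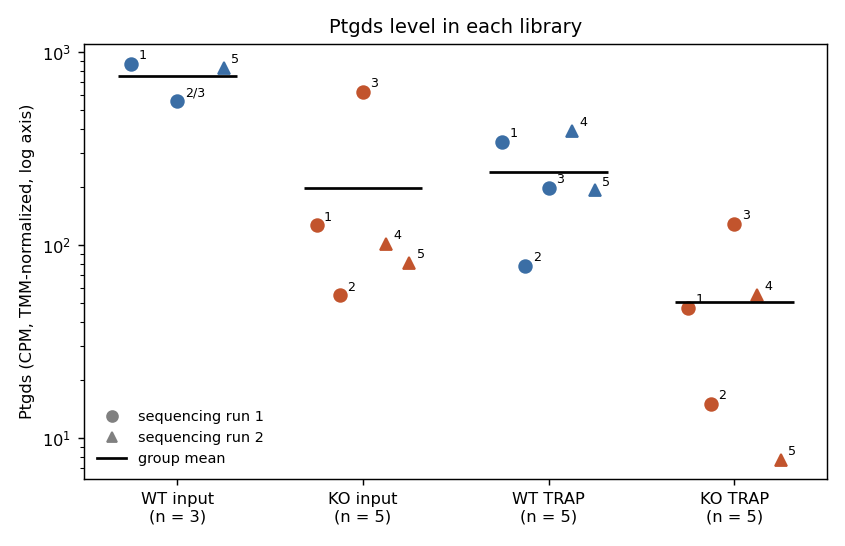
Ptgds level (TMM-normalized CPM, log axis) in each of 18 libraries, by genotype and RNA kind, with the replicate number beside each point, the sequencing run as the symbol and the group mean as a line. KO input 3, at 622 CPM, sits with the WT input libraries, and the other 4 KO input libraries sit between 54.9 and 126 CPM.

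The small leucine-rich proteoglycans Dcn, Lum and Ogn bind collagen fibrils and are abundant in meningeal fibroblasts. Dcn (decorin) had 5.06, 19.0 and 9.63 CPM in WT input 1, 2/3 and 5, and 0.842, 9.03, 13.4, 4.31 and 8.23 CPM in KO input 1 to 5. The groups overlapped, and the fitted difference was −0.63 ± 0.92 (edgeR, adjusted p = 0.9996). In TRAP it had 4.03, 2.21, 0.531, 22.2 and 0.949 CPM in WT 1 to 5 and 0.374, 0, 21.0, 3.20 and 15.5 CPM in KO 1 to 5, again overlapping, with a difference of 0.86 ± 1.28 (edgeR, adjusted p = 0.999). Lum (lumican) was near the limit of what these libraries can count, with 0 to 21 counts per library and none in 9 of 18, and it passed the filter on low counts in neither KO comparison. Its highest values were 2.09 CPM in WT input 1, 3.54 in KO input 1 and 3.59 in WT TRAP 4, and every other library had 0.291 CPM or less. Ogn (osteoglycin) was as sparse, with 0 counts in 7 of 18 libraries and its highest values in KO input 4 (7.42 CPM) and KO TRAP 3 (5.99 CPM). Ogn lies over part of Cenpp, and counting ignored strand, so its level is uncertain.

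Col1a1 and Col1a2 encode the 2 chains of type I collagen, and Col3a1 that of type III collagen, the fibrils that fibroblasts lay down. Col1a1 had 9.94, 6.80 and 9.33 CPM in WT input 1, 2/3 and 5, and 21.7, 3.49, 6.82, 6.22 and 16.2 CPM in KO input 1 to 5. Here the KO libraries lay on both sides of the WT libraries, and the fitted difference was 0.32 ± 0.83. Col1a2 had 9.59, 16.9 and 52.7 CPM in WT input and 31.0, 2.18, 7.03, 16.5 and 31.1 CPM in KO input, in the same order, a difference of −0.43 ± 0.72. Col3a1 ranged widely among WT libraries, with 11.5, 0.419 and 31.9 CPM against 3.71, 1.17, 2.56, 9.57 and 14.7 CPM in KO, a difference of −1.31 ± 0.92. None of the 3 passed (edgeR, adjusted p = 0.9996 each). The 2 chains of 1 protein did not keep 1 order over libraries: WT input 5 had the most Col1a2 and a middling level of Col1a1.

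In TRAP, Col1a1 had 3.56, 0, 17.5, 18.7 and 7.83 CPM in WT 1 to 5, and 13.5, 0.163, 13.3, 8.28 and 1.07 CPM in KO 1 to 5. Replicate 2 was the lowest library of both genotypes. Col1a2 had 4.27, 0.158, 0.708, 7.65 and 9.02 CPM in WT and 0.561, 2.45, 16.5, 1.88 and 3.20 CPM in KO, where KO TRAP 3 stood above all other TRAP libraries. The fitted differences were −0.39 ± 1.17 for Col1a1 and 0.55 ± 1.30 for Col1a2 (edgeR, adjusted p = 0.999 each). Col3a1 had 0.237 to 8.67 CPM in WT TRAP and 0.267 to 5.54 CPM in KO TRAP and did not pass the filter on low counts there.

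Slc6a13 encodes a GABA and taurine transporter (GAT2) of leptomeningeal cells. It had 1.92, 11.5 and 3.01 CPM in WT input 1, 2/3 and 5, and 10.3, 8.30, 16.2, 2.39 and 0.294 CPM in KO input 1 to 5, with overlap on both sides and a difference of 0.09 ± 1.09. In TRAP it had 4.75, 3.00, 6.20, 6.69 and 16.4 CPM in WT 1 to 5 and 0.374, 0, 3.44, 4.33 and 0.267 CPM in KO 1 to 5. Here 3 of 5 KO libraries lay below every WT library, the nearest to Ptgds among the 9 genes. The library labelled KO TRAP 1 is 1 of these 3. The fitted difference of −2.03 ± 1.10 did not pass (edgeR, adjusted p = 0.999). Within runs 1 and 2 it was −2.25 and −2.66 in mean log2 CPM.

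Aldh1a2 encodes a retinaldehyde dehydrogenase, through which the meninges make retinoic acid. It had 46.7, 21.0 and 6.02 CPM in WT input 1, 2/3 and 5, and 35.2, 6.26, 31.1, 23.7 and 30.9 CPM in KO input 1 to 5. The KO libraries lay inside the WT range, with a difference of 0.25 ± 0.72. In TRAP it had 17.6, 13.6, 0.708, 6.93 and 18.0 CPM in WT 1 to 5, and 0.374, 7.67, 12.1, 0.753 and 1.33 CPM in KO 1 to 5. The groups overlapped, and only the library labelled KO TRAP 1 lay below every WT library. The difference of −1.71 ± 1.09 did not pass (edgeR, adjusted p = 0.999), at −0.62 and −3.07 in mean log2 CPM within runs 1 and 2. Foxc1 encodes a forkhead transcription factor that meningeal mesenchyme needs, and had 6.28, 9.40 and 1.20 CPM in WT input against 8.42, 1.31, 2.98, 1.44 and 8.23 CPM in KO input. In TRAP it ranged from 0 to 14.6 CPM in WT and from 0.163 to 5.54 CPM in KO, and its fitted differences were −0.12 in input and −0.01 in TRAP.

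Over the KO comparisons, 8 of the 9 meningeal genes could be tested in input and 6 of 9 in TRAP. Of these, 0 passed in either (edgeR), beside 0.0% of all genes tested in each. Celf6, the targeted gene, did not pass in either, so not passing does not show that a gene was unchanged. At an unadjusted p under 0.05 there were 376 of 13036 genes in input and 455 of 12204 in TRAP, none of them among the 9. DESeq2 called 4 genes in input and 9 in TRAP, again none of the 9 (it gave Dcn in TRAP no adjusted p). Their median difference was −0.02 in input and −0.20 in TRAP, beside 0.02 in both for all genes. For no one of the 9 did all KO libraries lie below, or above, all WT libraries.

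**Figure D2:**
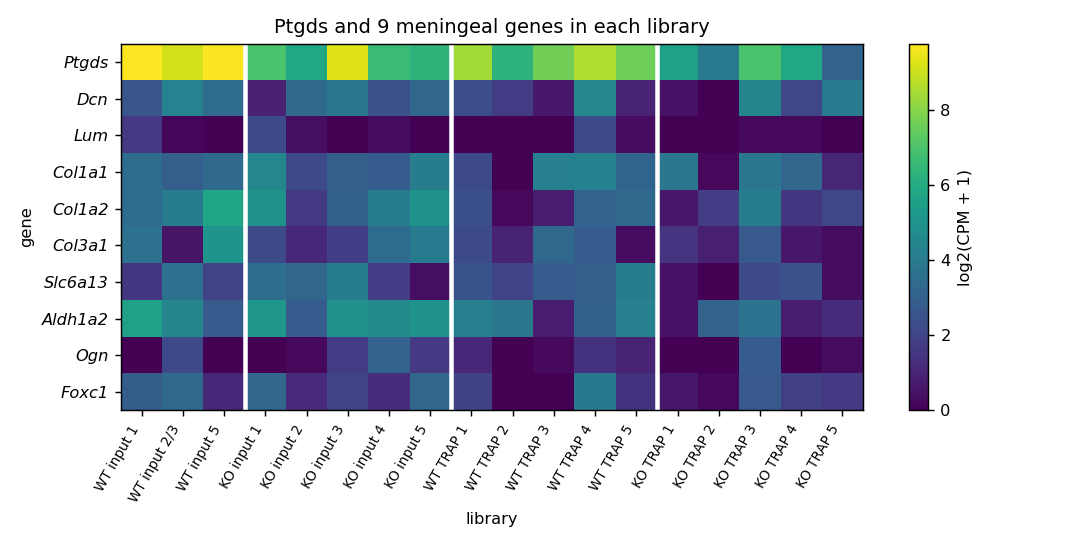
Level of Ptgds and the 9 meningeal genes in each library, as log2(CPM + 1) on a colour scale, with libraries in columns grouped by WT input, KO input, WT TRAP and KO TRAP. In the Ptgds row KO input 3 has the colour of the WT input columns and the other KO input columns are lower, and in the other rows WT and KO columns overlap.

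The 9 meningeal genes summed to 93.1, 88.5 and 114 CPM in WT input 1, 2/3 and 5, and to 115, 32.2, 82.5, 71.8 and 112 CPM in KO input 1 to 5. KO input 2 held the least and KO input 1 the most, and the genotypes overlapped. The sums were 98.5 ± 13.5 CPM (SD, n = 3) in WT and 82.6 ± 33.7 CPM (SD, n = 5) in KO.

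In input the ratio of Ptgds to the summed 9 genes was 9.35, 6.32 and 7.32 in the WT libraries and 1.10, 1.71, 7.54, 1.41 and 0.721 in KO 1 to 5. KO input 1 and KO input 5 held about as much of the meningeal genes as WT input 5, with 126 and 80.5 CPM of Ptgds against 832 CPM. KO input 3, the library with the WT-like Ptgds level, held 82.5 CPM of the meningeal genes, which is less than each WT library. With the mean log2 CPM of the 9 genes as a covariate, the fitted Ptgds difference was −2.17 ± 0.57, beside −2.11 ± 0.57 without it.

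In TRAP the sums were 41.8, 19.9, 34.5, 88.2 and 55.3 CPM in WT 1 to 5, and 17.6, 11.3, 83.6, 21.8 and 24.0 CPM in KO 1 to 5. Ptgds and the sum moved together here in part. WT TRAP 2 had the least of both among WT libraries, WT TRAP 4 the most of both, and KO TRAP 3 the most of both among KO libraries. But KO TRAP 5, with the least Ptgds (7.74 CPM), had a larger sum than KO TRAP 1, 2 and 4. WT TRAP 1 had more Ptgds than WT TRAP 5 (344 against 192 CPM) and a smaller sum. The ratio of Ptgds to the sum was 8.24, 3.91, 5.73, 4.44 and 3.48 in WT 1 to 5, and 2.69, 1.33, 1.53, 2.53 and 0.322 in KO 1 to 5. Every KO ratio lay below every WT ratio, a ratio that contains the gene chosen for its KO level. How often such a ratio of another gene separates the genotypes was not computed. The covariate took the fitted Ptgds difference from −2.30 ± 0.60 to −1.84 ± 0.43. KO TRAP 3 and WT TRAP 4, 1 pair picked for its like sums, had 83.6 and 88.2 CPM of the meningeal genes. Their Ptgds levels were 128 and 392 CPM.

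**Figure D3:**
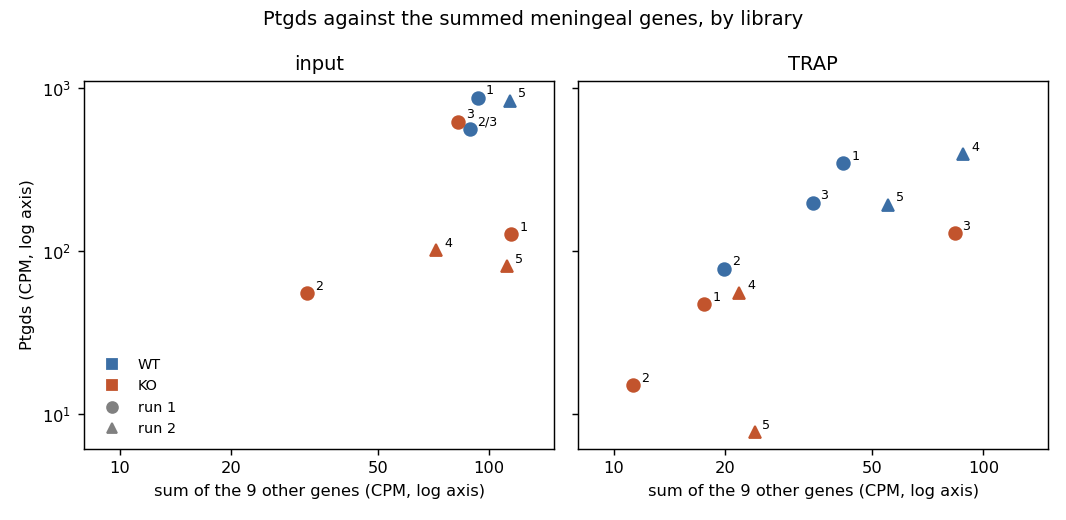
Ptgds level against the sum of the 9 meningeal genes (both TMM-normalized CPM, log axes) in each library, input on the left and TRAP on the right, with genotype by colour, sequencing run by symbol and the replicate number beside each point. Where WT and KO sums are alike, the KO libraries have less Ptgds in both panels, other than KO input 3 (82.5 CPM of meningeal genes and 622 CPM of Ptgds). KO input 2, 3 and 4 and KO TRAP 1 and 2 have smaller sums than any WT library of their panel. At those sums there is no WT library to compare.

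The likeness of Ptgds to the 9 genes over libraries was measured on log2 CPM after subtracting each genotype's mean, which leaves the genotype difference out. Points of 1 RNA kind share the sequencing runs and the normalization. In input (8 libraries), Ptgds and the mean of the 9 genes had a Pearson r of 0.37 and a Spearman rho of 0.00. The r rests on KO input 2: it was −0.36 without that library alone. It was −0.28 without KO input 3 and KO input 2, whose Ptgds levels lie farthest from the median, and 0.60 after also subtracting run means. In TRAP (10 libraries), r was 0.74 and rho 0.76, r was 0.83 without KO TRAP 5 and KO TRAP 3, and 0.78 after also subtracting run means. No p is given for these means.

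Gene by gene in TRAP, the r with Ptgds was 0.78 for Col1a1 (rho 0.70), 0.68 for Slc6a13 (rho 0.75), 0.65 for Ogn, 0.64 for Col3a1, 0.57 for Foxc1 (rho 0.72), 0.48 for Col1a2, 0.40 for Lum, 0.29 for Dcn and 0.09 for Aldh1a2. All 9 were positive, as were 6316 of the 12203 genes compared, whose median was 0.02 and 95th percentile 0.56. Ogn, Col3a1 and Lum were under the filter on low counts and are not among those 12203. Aldh1a2 turned negative after also subtracting run means (−0.07) and without KO TRAP 5 and KO TRAP 3 (−0.39). In input the r ran from −0.09 (Lum) to 0.38 (Slc6a13). For Col1a1 in TRAP the exact permutation p, within genotype and 2-sided, was 0.0146 and the adjusted p over all genes 0.999, and 0 genes passed in either RNA kind (495 of 13035 in input and 465 of 12203 in TRAP had an unadjusted exact p under 0.05).

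The genes most like Ptgds by this r, among those with a mean of at least 5 CPM, were not meningeal members. In input they were Hspa12a (r = 0.98, rho = 1.00), Eif2s1 (0.98 and 0.95), A230065H16Rik (0.97 and 0.93), Syt1 (0.93 and 0.81) and Bcam (0.92 and 0.83). In TRAP they were Rnf145 (r = 0.94, rho = 0.90), Kcns3 (0.92 and 0.82), Gsta4 (0.91 and 0.78), Zscan12 (0.90 and 0.89) and Mgat2 (0.90 and 0.89). They were picked as the top of 13035 values in input and 12203 in TRAP, and their exact permutation p adjusted over all genes was 0.9996 in input and 0.999 in TRAP for each.

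TRAP against input did not enter the choice of Ptgds and can be tested. Ptgds was lower in TRAP by −1.75 ± 0.44 (edgeR, adjusted p = 0.0201), 3.37-fold, in the mean of WT and KO, where 673 of 14261 genes tested (4.72%) passed, 343 higher (2.41%) and 330 lower (2.31%). That count fell to 346 without WT input 5 and to 363 without WT input 1, and was 1332 with DESeq2 and 1065 without the filter on low counts. The runs taken apart gave −1.92 (run 1) and −1.85 (run 2) in mean log2 CPM. Set by replicate number, the TRAP level was 39.5%, 13.9%, 35.4% and 23.1% of the input level in WT 1, 2, 3 and 5. WT 2 and 3 were set against the same summed input. In KO 1 to 5 it was 37.4%, 27.4%, 20.6%, 54.8% and 9.61%. TRAP was below input for all 9 numbers, which are not 9 independent pairs, with no order between genotypes. Xist and Y-linked RNA had 0.475 and 71.2 CPM in WT TRAP 5, against 37.0 and 9.93 in WT input 5. They had 71.2 and 28.8 CPM in the library labelled KO TRAP 1, against 103 and 0.505 in KO input 1. Whether WT 5 and KO 1 each stand for 1 brain is therefore uncertain. The same holds for WT 2 and WT 3, whose inputs were as alike as repeat runs. The Ptgds call was lost without WT input 5 (−1.57, edgeR, adjusted p = 0.105) and without KO input 3 (−1.25, adjusted p = 0.0642), and held without the library labelled KO TRAP 1 (−1.72, adjusted p = 0.0324).

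The 9 meningeal genes were all lower in TRAP in sign, with a median difference of −1.08 beside 0.02 for all genes, of which 48.4% were negative, and 0 of 9 passed. Col1a2 (−2.12 ± 0.68, edgeR, adjusted p = 0.0717) and Aldh1a2 (−1.79 ± 0.61, adjusted p = 0.0906) came nearest. Col1a2 did pass with the replicate number as a block (−2.79, edgeR, adjusted p = 0.0443) and without KO TRAP 3 (−3.01, adjusted p = 0.00536), as did Aldh1a2 without KO TRAP 3 (−2.16, adjusted p = 0.0378). The block fit held WT input 2 and WT input 3 as separate libraries, though they count as 1 sample elsewhere. Within runs 1 and 2, Col1a2 differed by −2.25 and −2.82 in mean log2 CPM and Aldh1a2 by −2.26 and −1.73. The other differences were −1.96 for Lum, −1.53 for Col3a1, −1.08 for Foxc1, −0.80 for Slc6a13, −0.72 for Ogn, −0.57 for Dcn and −0.23 for Col1a1. Leaving out single libraries turned 2 of these positive, Col1a1 (up to 0.02) and Ogn (up to 2.29). For Col3a1 it was 0.08 in run 1 and −4.0 in run 2. The sign differed between runs for 3 more genes, which were negative in run 1 and positive in run 2: Lum (−1.39 and 1.00), Slc6a13 (−1.81 and 1.02) and Foxc1 (−2.39 and 0.64). As a share of the input level by replicate number, the summed 9 genes in TRAP were 15.3% to 101% (median 35.0%, 9 numbers). For Ptgds the share was 9.61% to 54.8% (median 27.4%). The highest share of the sum was in KO 3.

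Ptgds fell in TRAP beside genes of other cells that serotonin cells are not known to express. Igf2, a growth factor gene of meninges and choroid plexus, fell by 2.08 ± 0.26 (edgeR, adjusted p = 7.29e-06), and Mbp, which encodes myelin basic protein, fell by 1.97 ± 0.22 (adjusted p = 1.06e-06). All 12 serotonin neuron genes were higher in TRAP and 11 passed, beside 2.41% of all genes tested passing as higher. Ptgds RNA at 7.74 to 392 CPM in TRAP thus stands beside TRAP levels of 29.6 to 208 CPM for Igf2 and 638 to 2146 CPM for Mbp. How much of the TRAP signal of Ptgds comes from serotonin cells was not tested.

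The difference between the 2 KO effects, TRAP less input, was −0.33 ± 0.89 for Ptgds, given with no test. It lay between −0.97 and 0.79 when single libraries were left out, changing sign without KO input 3 (0.79) and without WT TRAP 4 (0.10). None of the 9 meningeal genes passed a test of this difference (edgeR, adjusted p = 1.00 each, 0.0% of all 14261 genes called, 554 at an unadjusted p under 0.05). Its sizes were largest for Lum (−2.89 ± 2.90), Slc6a13 (−2.55 ± 1.69) and Aldh1a2 (−1.96 ± 1.35).

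**Figure D4:**
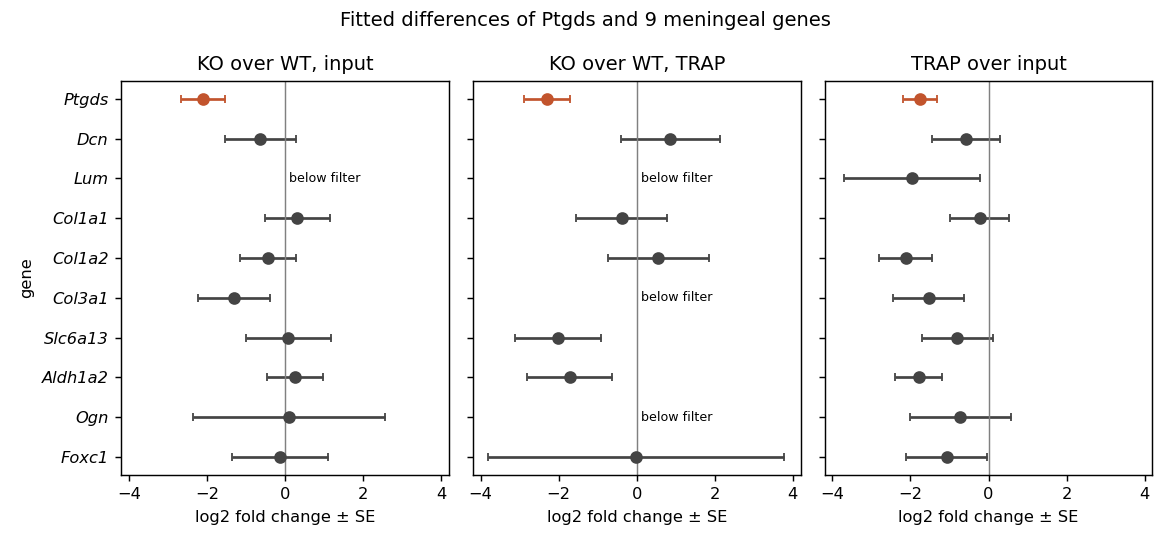
Fitted log2 fold changes (points) with SE (bars) for Ptgds (orange) and the 9 meningeal genes (grey), KO over WT in input, KO over WT in TRAP, and TRAP over input. Genes under the filter on low counts have no point, and the SE is the fold change divided by the root of the F statistic, which is unstable near 0 (Foxc1 in the middle panel). All 10 genes lie left of 0 in the right panel. In the left and middle panels Ptgds lies at −2.11 and −2.30, with the other genes on both sides of 0. Nearest to Ptgds are Col3a1 (−1.31 ± 0.92) on the left, and Slc6a13 (−2.03 ± 1.10) and Aldh1a2 (−1.71 ± 1.09) in the middle.

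Per kilobase of exon, so that genes can be compared with each other, Ptgds had 937 ± 211 CPM per kb (SD, n = 3) in WT input. Aldh1a2 followed at 10.9 ± 9.10, then Dcn (5.38 ± 3.40), Col1a2 (5.13 ± 4.49), Col3a1 (2.63 ± 2.87), Slc6a13 (2.55 ± 2.44), Col1a1 (1.85 ± 0.36), Foxc1 (1.41 ± 1.04), Ogn (0.451 ± 0.782) and Lum (0.350 ± 0.571). Only the gap below Ptgds, 86.2-fold, is larger than the spread over libraries, and the neighbours below it do not differ beyond theirs. The 9 genes rest on few reads: their median count per library ran from 0.5 (Lum) to 75 (Aldh1a2), and 21 of 162 values were 0. A count of 0 allows up to 3 counts, 0.252 to 0.903 CPM over these libraries, which covers counting error only. RNA was amplified before library preparation and the reads carry no molecular identifiers as far as the labels say, so counts are not independent molecules.

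Genes of other cells known for Ptgds were read as lists. A further list of 20 fibroblast and meninges genes had 15 tested in input, 12 of them negative in KO, with a median of −0.52 and 0 passing. Its sum, of which Igf2 is the largest part, was 770, 781 and 660 CPM in WT input 1, 2/3 and 5, and 568, 499, 525, 492 and 440 CPM in KO input 1 to 5. Every KO library lay below every WT library in this sum, KO input 3 included. Of single genes tested in input 1.27% did so, but no such share was computed for sums of genes. Igf2 itself had 583, 598 and 395 CPM in WT and 310 to 417 CPM in KO, 3 of the 5 KO values lay below all WT values, and the fit gave a difference of −0.52 ± 0.21 (edgeR, adjusted p = 0.9996). In TRAP 6 of the 9 tested were negative (median −0.69), and the sum was 81.7 to 413 CPM in WT and 119 to 229 CPM in KO. Igf2 had 42.4 to 208 CPM in WT TRAP and 29.6 to 94.2 CPM in KO TRAP. Its fitted difference there was −1.10 ± 0.40 (edgeR, adjusted p = 0.999). The part of this second meningeal sum in the Ptgds difference was not tested.

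Choroid plexus genes were negative in KO input for 11 of 12, with a median of −1.10 and 0 passing. Folr1, a folate receptor gene, differed by −3.44 ± 1.54, Aqp1 by −2.41 ± 1.67, Clic6 by −2.04 ± 1.43 and Kl by −1.48 ± 0.95. Ttr, which encodes the thyroxine carrier transthyretin, swung over libraries far more than Ptgds: 3958, 366 and 3418 CPM in WT input, and 1723, 611, 11.7, 2322 and 6.17 CPM in KO input 1 to 5. KO input 3, where Ptgds was at 622 CPM, had 11.7 CPM of Ttr, and KO input 4, where Ptgds was at 101 CPM, had 2322 CPM of Ttr. After subtracting genotype means, the mean of the 12 choroid plexus genes had an r with Ptgds of −0.33 in input, which turned to 0.81 without KO input 3 and KO input 2. In TRAP the mean of the 8 tested there had r = 0.47, and 0.70 without KO TRAP 5 and KO TRAP 3. In TRAP 3 of the 8 tested were negative (median 0.09). Ttr had 7.08 to 1775 CPM in WT TRAP and 0.267 to 255 CPM in KO TRAP, and differed by −2.92 ± 1.11 (edgeR, adjusted p = 0.999).

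Oligodendrocyte lineage genes, all 18 tested, had a median of 0.03 in KO in both RNA kinds, with 9 negative in input and 8 in TRAP. Mbp had 3306 to 7433 CPM in WT input and 3381 to 5284 CPM in KO input, overlapping, with a difference of −0.07 ± 0.20. In TRAP against input, where 48.4% of all genes were negative and 2.31% passed as lower, all 18 were negative. Of these 18, 6 passed (Mbp, Olig1, Olig2, Sox10, Mag and Cnp). After subtracting genotype means, the mean of this list had an r with Ptgds of 0.36 in input (−0.05 without the 2 farthest libraries, 0.85 after also subtracting run means) and 0.44 in TRAP (0.54 without its 2). The mean of the second fibroblast and meninges list had r = 0.78 in input, which turned to −0.73 without KO input 3 and KO input 2, and 0.19 in TRAP.

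Of the other cell types, astrocyte genes (12 tested) had medians of −0.08 in KO input and 0.05 in KO TRAP, endothelial and mural genes 0.00 (15 tested) and −0.33 (12 tested), microglia and macrophage genes 0.09 (14 tested) and −0.77 (7 tested), and serotonin neuron genes 0.03 and 0.16 (12 tested). Ependymal genes had 3 tested in input (median 0.53) and 1 in TRAP, and blood genes 0 and 1. None of these passed in KO (edgeR). In TRAP against input all 12 astrocyte genes were negative and 5 passed (Glul, Sox9, Gfap, S100b and Aldoc), beside 2.31% of all genes passing as lower. Of 16 endothelial and mural genes 1 passed as lower, the smooth muscle gene Tagln. Among the rest, 0 of 17 microglia and macrophage genes, 0 of 12 choroid plexus genes and 0 of 4 ependymal genes passed.

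The rest of the prostaglandin pathway, from cyclooxygenases to receptors, was read as a list too. Of 26 further prostaglandin genes, 14 were tested in input and 12 in TRAP, 0 passed, and the medians were 0.18 and 0.16. In input the smallest p belonged to Cbr1, a carbonyl reductase gene (1.22 ± 0.57), and to Fam213b, a prostaglandin F synthase gene (0.55 ± 0.37), both positive. In TRAP it belonged to Ptges, the inducible prostaglandin E synthase gene (−3.43 ± 1.19), followed by Fam213b (−0.67 ± 0.36) and the prostaglandin E receptor gene Ptger3 (1.46 ± 1.00). Hpgds, the other prostaglandin D synthase gene, did not pass the filter on low counts in either. In TRAP against input 0 of 21 passed (median 0.11), against −1.75 for Ptgds.

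Genes around Aldh1a2 and the collagens were read the same way. Of 17 further retinoic acid genes 12 were tested in each KO comparison and 0 passed (medians 0.01 and −0.34). Crabp1, a retinoic acid-binding protein gene, had the smallest p in both, at 1.41 ± 0.43 in input and −1.27 ± 0.84 in TRAP, and the receptor gene Rarb stood at −2.41 ± 1.03 in input. In TRAP against input Crabp1 fell by 2.13 ± 0.44 (edgeR, adjusted p = 0.00428). Of 21 genes for making and linking collagen, 17 were tested in input and 14 in TRAP, 0 passed, and the medians were 0.80 and 0.24. Among them Lepre1, a prolyl hydroxylase gene, stood at −2.71 ± 0.76 in KO input, P4hb at 0.80 ± 0.42, and the collagen chaperone gene Serpinh1 at −2.20 ± 1.42 in KO TRAP. In TRAP against input 0 of 19 passed (median −0.22).

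Ptgds spans 25466712 to 25469749 on the minus strand of chromosome 2 in mm10, with 7 exon intervals and 805 exon bases, and is the shortest of the 10 genes by exon length. It was the only one of the 10 in the authors' deposited table of splicing events, with an alternative 5′ splice site. The 2 donors lie at 25467287 and 25467320, 33 bases apart. The authors' deposited table gives a PSI (percent spliced in, a fraction) of 0.550 in WT input 1 and 0.637 in WT input 2, and none in any KO or TRAP library, so it allows no comparison of genotypes for this event. The table's header does not say which donor a PSI of 1 stands for. In the authors' deposited table Ptgds is marked as a gene bound by CELF6 in crosslinking and immunoprecipitation, in an intron and by comparison with input. Of its 4158 genes, 1036 (24.9%) are marked as bound.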

How the data were processed

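Counts per gene, 1 file per library, were used as the authors deposited them, made with featureCounts 1.4.6-p5 per the file headers (exon reads summed per gene, mm10, no strand, no reads mapped to several places). Trimming with Trimmomatic and alignment with STAR come from the submitters' processing notes, without versions. Amplification with the Nugen Ovation 2 kit and NEBNext Ultra libraries are per the labels. PSI values are fractions from MISO in the authors' deposited tables, limited to credible intervals no wider than 0.20 according to the design text.

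Groups follow the labelled genotype and RNA kind. The 4 repeat runs of replicate 3 and WT input 4, marked as an outlier by the submitters, were left out. Fits used R 4.3.3 and edgeR 4.0.16 (filterByExpr, TMM, sequencing run as covariate, quasi-likelihood F test, Benjamini-Hochberg over all genes tested, threshold 0.05), and were tested on simulated data. TRAP against input is the mean of its differences in KO and WT. Printed CPM are scaled over all 18 libraries by TMM. Correlations used log2 CPM with a prior count of 2, centred within genotype, with exact permutation within genotype (720 in input, 14400 in TRAP; Python 3.11.15, scipy 1.17.1). Alternatives were DESeq2 1.42.0, no TMM, no filter, no run covariate, repeat runs, the replicate block, WT input 2 and 3 apart, and each library left out. The fits with repeat runs and with the block also kept WT input 2 and 3 apart. Equal numbers in input and TRAP were taken as 1 brain, from the series' design text. Deviations of such pairs from the means of their group within a run correlated at −0.031 to 0.068. KO 4 and KO 5, the only KO libraries of run 2, necessarily shared 1 value (0.0283), and WT 5 gave none.

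Members and lists were chosen with earlier results of these data known. Named are the 10 members, the 5 genes most like Ptgds per RNA kind at 5 CPM or more, list genes past the threshold or else up to 4 with the smallest p, and Celf6. One result that this rule would name is not reported here. Igf2, Ttr and Mbp are list genes whose levels by library were added after their values were seen. The lists were other fibroblast and meninges, choroid plexus, ependymal, oligodendrocyte lineage, astrocyte, endothelial and mural, microglia and macrophage, blood, serotonin neuron, prostaglandin, retinoic acid and collagen synthesis genes. Positions and symbols of all 10 members matched RefSeq entries.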

Additional observations from a re-analysis of the deposited data

Results flagged for a closer look

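In groups of 5 libraries, the highest or lowest value was compared with its nearest neighbour, and flagged where that gap exceeded the 95% critical share of the group's range. Of 30 combinations of a member and a group, 8 stood out, each by its highest library, where chance flags about 1 in 20 groups of normally distributed values. These CPM are skewed and hold many zeros, so that rate does not carry over to them, and the Ptgds values in KO input were used to choose the gene. Ptgds stood out in KO input 3, at 622 CPM against 54.9 to 126 CPM in the other 4 KO input libraries, and its repeat run gave the same level. In WT TRAP 4, 3 meningeal genes stood out together, Dcn at 22.2 CPM, Lum at 3.59 CPM and Foxc1 at 14.6 CPM. In KO TRAP 3 it was Col1a2 at 16.5 CPM and Ogn at 5.99 CPM. Slc6a13 stood out in WT TRAP 5 at 16.4 CPM and Lum in KO input 1 at 3.54 CPM.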

How the results depend on the processing

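Ptgds kept its sign in KO against WT under all 16 alternatives in input (−3.07 to −1.42) and all 17 in TRAP (−2.95 to −1.84), and below input in TRAP under all 25 (−2.12 to −1.25). That call was lost without KO input 3 (−1.25) and without WT input 5 (−1.57). The KO value of −1.42 in input, without WT input 5, rests on run 1 alone. With the replicate block, Ptgds was at −2.44 and −2.66 in KO input and TRAP and −1.95 in TRAP against input, and the difference of its KO effects turned from −0.33 to 0.023. Leaving out single libraries moved that difference between −0.97 and 0.79 (0.10 without WT TRAP 4). The block changed no call of a member other than Col1a2, and called 775 genes in TRAP against input (565 shared with the main 673). That count was 1332 with DESeq2, 1065 without the filter and 346 to 831 with single libraries left out (363 without WT input 1, 346 without WT input 5). The other counts, all 0, became 4 in input, 9 in TRAP and 4 for their difference with DESeq2, and 4, 16 and 3 without the filter. Input ranged from 0 to 1 with single libraries left out, with 1 without KO input 3. The r of Ptgds with the meningeal mean in input was −0.36 without KO input 2, −0.28 without the 2 farthest libraries, and −0.36 to 0.65 over all single libraries. Of 656 values of the 9 meningeal genes, 647 stayed on their side of the threshold and 9 newly passed. Those 9 are Col1a2 and Aldh1a2 in TRAP against input. Col1a2 passed with DESeq2, without the filter, with the repeat run, the block or WT input 2 and 3 apart, and without KO TRAP 3. The repeat-run and block fits also hold WT input 2 and 3 apart, so these passes treat 2 libraries as alike as repeat runs as separate samples. Aldh1a2 passed with DESeq2, without the filter and without KO TRAP 3. Low counts limit Lum and Ogn most.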

Other observations

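The libraries left out of the comparisons gave these Ptgds levels in CPM by library total, without further scaling. KO input 3 had 631 CPM in its first run and 632 CPM in its repeat run, KO TRAP 3 had 131 and 148, WT TRAP 3 had 201 and 206, and WT input 3 had 597 and 659. WT input 4, with 325072 counts in all, had 189 counts of Ptgds, 581 CPM (Wilson 95% interval 504 to 670, counting error only). The other 9 genes had 0 to 5 counts there.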
